A study of Homo sapiens with 8 samples.

Results

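The 52 genes described here act in late G2 phase and mitosis, and the group comprises spindle checkpoint kinases, mitotic kinesins, condensin subunits, mitotic cyclins with CDK1, and their partners. They were given as a list of names. A gene was taken when a transcript cluster of the array (the set of probes that reports 1 transcribed locus) carried its symbol and no other, and the cluster of highest mean stood for a gene with several. All 52 listed genes were measured, among 18417 genes with such a cluster. For the description they were placed in 10 role groups.

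RNA came from 2 human multiple myeloma lines, malignant plasma cells grown in culture. U266/s is the parental line and U266/LR7 is resistant to melphalan. Each line was measured on 4 one-colour Affymetrix arrays of total RNA, all collected at 12 h: a negative control oligonucleotide, blockers of 2 microRNAs, miR-221 and miR-222, called the inhibitors here, at 100 nM, melphalan at 100 µM, and melphalan with the inhibitors. Melphalan is a nitrogen mustard that alkylates DNA and links its strands, and it is used against myeloma. Every condition has 1 array, so no condition was replicated. For the melphalan arrays without inhibitors the labels disagree, since their transfection tag reads none while the growth protocol reads as if a negative control was given. The melphalan difference without inhibitors would hold that difference in transfection too if the tag is right. Neither separate cultures nor separate clones are named for the arrays, so the p-values below reflect no more than how far these arrays scatter, and that scatter may be technical.

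As background, entry into mitosis is driven by CDK1 bound to cyclin B, which CDC25 phosphatases switch on. The chromosomes are then compacted by condensin and captured by spindle microtubules at their kinetochores. Until all are attached, the spindle checkpoint kinases hold back the anaphase-promoting complex, the ubiquitin ligase whose activators and partners (CDC20, UBE2C) lead to the loss of securin (PTTG1) and cyclin B. Many of these genes are transcribed together, late in the cell cycle, under FOXM1 and the B-MYB and MuvB complexes that bind a promoter element called CHR, and DNA damage is known to lower them through the DREAM complex. Alkylated DNA commonly stops cells before mitosis.

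The values are log2 signals made with RMA (a background correction, normalization and probe summary for Affymetrix arrays), so a difference of 1 is a 2-fold change in signal. A level of 1 gene cannot be set against that of another, because probes differ. Folds, standard errors and adjusted p-values come from a single limma fit over all genes with terms for line, melphalan, inhibitors and melphalan by line. The standard errors rest on the scatter this fit leaves over, which holds any inhibitor effect that differs between lines or melphalan states. Arrays without and with inhibitors thus stand in for replicates. A gene is said to have risen or fallen when its p after Benjamini-Hochberg adjustment over all 18417 genes was under 0.05. In what follows, a pair of values gives the array without inhibitors and then the array with them, and each fold within a line rests on 2 arrays against 2.

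After melphalan the mitotic genes fell across most of the list in U266/s and in few cases in U266/LR7. In U266/s, 43 of 52 fell and 2 rose, where over all genes 24.9% fell and 18.4% rose. The median log2 fold of the 52 was -1.17, beside 0.075 over all genes, and single folds ran from -2.69 for SGO2 to 0.79 for PTTG1. Of the 52, 29 fell by more than 1 log2 unit. In U266/LR7, 9 of 52 fell and 0 rose, where over all genes 3.61% fell and 3.02% rose, and the median fold was -0.31, beside 0.049 over all genes. The U266/LR7 folds ran from -0.97 for PLK1 to 0.25 for CDC25B. In bulk RNA, fewer cells in G2 and mitosis and less of the RNA per cell cannot be told apart.

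**Figure D1:**
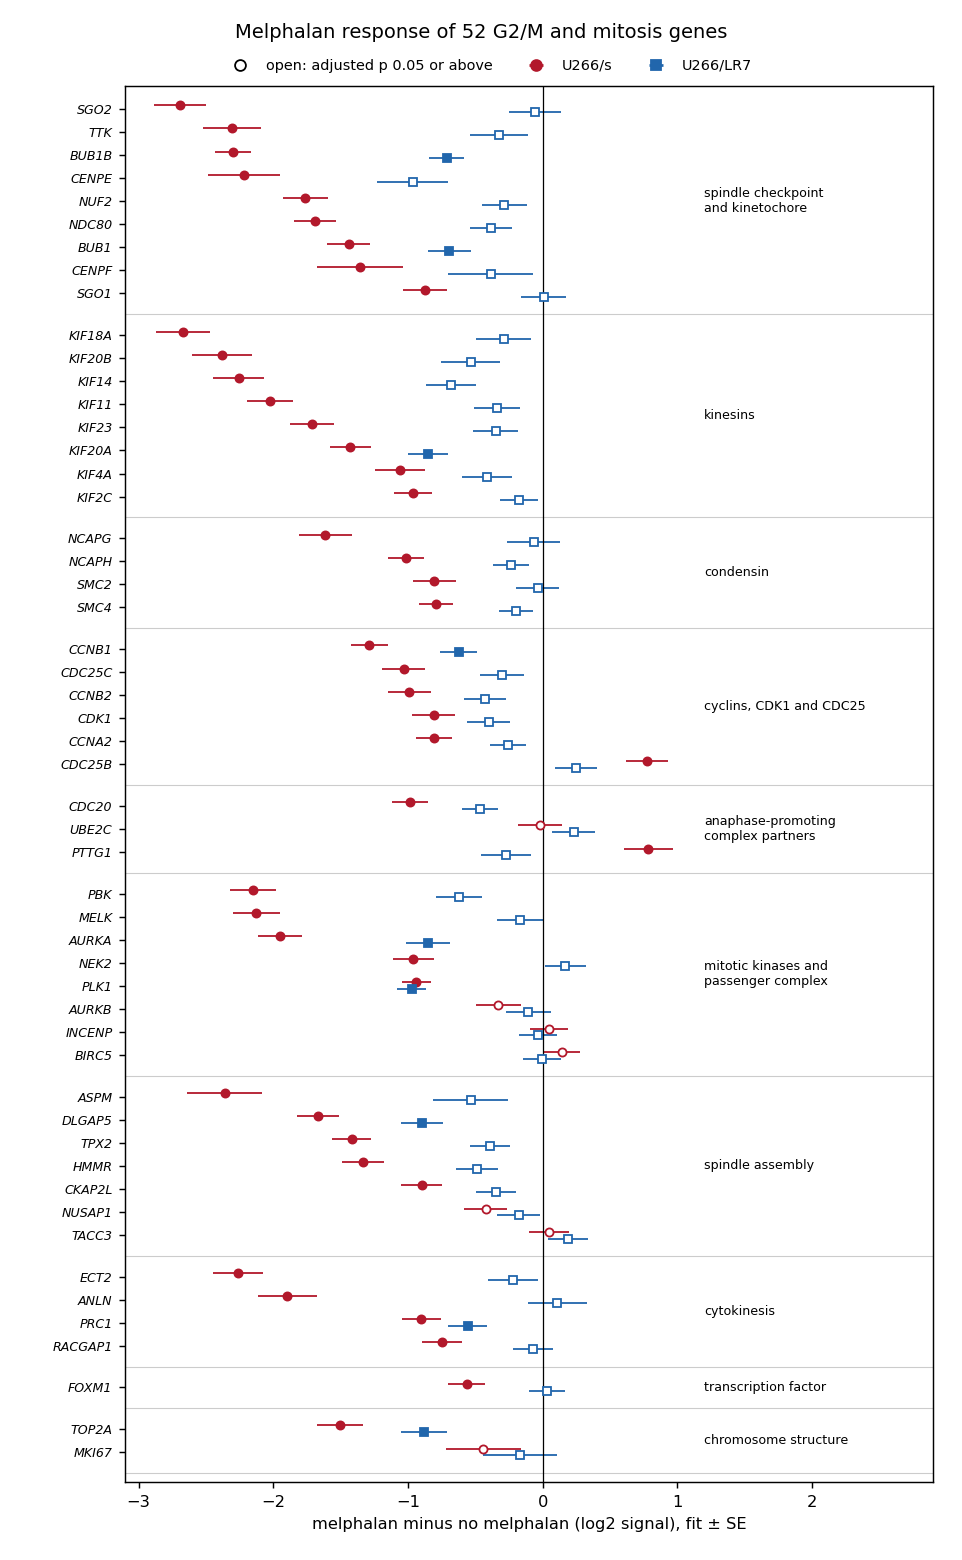
Melphalan response of each of the 52 genes by role group. The horizontal axis gives the fitted difference between melphalan and no melphalan in log2 signal with its SE, red circles stand for U266/s and blue squares for U266/LR7, and open symbols mark adjusted p-values of 0.05 or above (limma). The red points lie left of 0 for 47 genes, out to -2.69, while the blue points stay between -0.97 and 0.25.

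The spread of signals over all transcript clusters was narrower on both U266/s melphalan arrays. Its interquartile range there was 3.25 and 3.34 log2 units, and between 3.58 and 3.71 on the other 6. In U266/s the upper quartile was 8.77 and 8.70 without melphalan and 8.59 and 8.58 with it. The 52 genes lay at the bright end, with a median signal without melphalan between 9.80 and 10.06, where that of all genes was 7.34 to 7.38. Shares over all genes are therefore not shares over genes of like signal. The part of the narrower spread in the U266/s result was not tested. Under median centring, quantile and cyclic loess normalization of the arrays, 45, 43 and 43 of the 52 genes were lower. Median centring leaves the spread of an array unchanged. The comparisons between lines given below moved more. The genes with a smaller fall in U266/LR7 numbered 32 as deposited and 36, 26 and 24 under these settings, and those higher in U266/LR7 with melphalan 40, then 42, 35 and 33. All 12 plasma cell markers examined lay above the lower quartile of transcript clusters on all 8 arrays. With melphalan in U266/s, 5 of them (41.7%) fell and 2 (16.7%) rose, beside 24.9% and 18.4% of all genes. Their summed linear signal was 30182 and 28185 without melphalan against 24269 and 24441 with it. In U266/LR7, 2 (16.7%) fell, beside 3.61% of all genes, and the sum was 35289 and 28861 against 25477 and 25071. Their part in the mitotic genes' result was not tested. Of 9 myeloid markers, 5 (55.6%) rose with melphalan in U266/s, beside 18.4% of all genes. The summed linear signal of the 9 was 556 and 642 without melphalan against 1306 and 1366 with it. In U266/LR7 the same sum was 678 and 818 against 847 and 1106. The myeloid markers LYZ and S100A8 lay below the lower quartile on every array, and the part of such a shift in the mitotic genes was not tested. Summed T and NK cell markers ranged from 531 to 747 over the 8 arrays, and stromal and epithelial markers from 1068 to 1420.

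The spindle checkpoint and kinetochore genes fell in all 9 cases in U266/s, with a median of -1.76, and in 2 of 9 in U266/LR7, with a median of -0.38. TTK (MPS1) is the kinase that starts checkpoint signalling at unattached kinetochores. Its signal in U266/s was 8.96 and 8.52 without melphalan and 6.61 and 6.26 with it. The same arrays of U266/LR7 gave 9.19 and 9.72, then 9.05 and 9.22. Both U266/s melphalan arrays thus lay below all 6 others, whereas the U266/LR7 ranges with and without melphalan overlapped. The fitted fold was -2.30 ± 0.22 (SE; adjusted p = 1.33e-05, limma) in U266/s and -0.32 ± 0.22 (adjusted p = 0.477) in U266/LR7.

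SGO2, a shugoshin that shields centromeric cohesin, had the deepest fall of the list in U266/s. Its signal there was 9.77 and 9.52 without melphalan and 6.87 and 7.04 with it, while U266/LR7 stood at 8.79 and 9.42, then 9.09 and 9.0. The U266/s groups were apart by more than 2 log2 units and the U266/LR7 groups overlapped. Its fold was -2.69 ± 0.20 (adjusted p = 3.94e-06, limma) against -0.06 ± 0.20 (adjusted p = 0.93). BUB1B encodes BUBR1, a part of the complex that inhibits CDC20. BUB1B gave 10.82 and 10.74, then 8.52 and 8.43 in U266/s, and 10.46 and 10.56, then 9.80 and 9.80 in U266/LR7. Here the groups were apart in both lines, with falls of -2.30 ± 0.13 (adjusted p = 1.96e-06, limma) and -0.71 ± 0.13 (adjusted p = 0.00966).

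BUB1, the kinase that marks centromeric chromatin for shugoshin, was the other member of the group that fell in both lines, by -1.44 in U266/s and -0.69 in U266/LR7. NDC80 and NUF2, which bind microtubules as parts of 1 complex, fell in U266/s by -1.69 and -1.76. CENPE, a kinesin that carries chromosomes to the spindle equator, fell there by -2.22, and its U266/LR7 fold of -0.97 ± 0.27 did not pass (adjusted p = 0.0541, limma). CENPF, a large kinetochore protein, fell by -1.36 in U266/s, a call that was lost when either the U266/s control array or the U266/s array with both agents was left out. SGO1, which shields cohesin as SGO2 does, had the smallest fall of the group, -0.87.

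All 8 mitotic kinesins, motors that build and move the spindle, fell in U266/s, with a median of -1.87, the lowest of the role groups with over 2 members. In U266/LR7, 1 of 8 fell and the median was -0.38. KIF18A dampens chromosome oscillations at the metaphase plate. KIF18A gave 9.16 and 8.65 without and 6.29 and 6.18 with melphalan in U266/s, and 8.98 and 9.45, then 8.88 and 8.98 in U266/LR7. The U266/s melphalan arrays lay more than 2 log2 units below all others, and the U266/LR7 groups all but met, at 8.98. Its fold was -2.67 ± 0.20 (adjusted p = 4.84e-06, limma) in U266/s and -0.29 ± 0.20 (adjusted p = 0.504) in U266/LR7.

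KIF20B, a kinesin of late mitosis and cytokinesis, was measured at 8.82 and 8.55, then 6.40 and 6.21 in U266/s. Its U266/LR7 values were 8.46 and 9.24, then 8.31 and 8.31. Both lines had lower values with melphalan on each array, but the fall passed only the U266/s test, at -2.38 ± 0.22 (adjusted p = 1.33e-05, limma) against -0.54 ± 0.22 (adjusted p = 0.2). KIF14, which works with PRC1 and citron kinase in cytokinesis, gave 9.22 and 8.69, then 6.82 and 6.58 in U266/s, and 8.52 and 8.84, then 8.06 and 7.94 in U266/LR7. Again the groups did not overlap in either line, with folds of -2.26 ± 0.19 (adjusted p = 7.53e-06, limma) and -0.68 ± 0.19 (adjusted p = 0.0553).

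KIF20A, which brings the chromosomal passenger complex to the midzone, was the kinesin that fell in both lines, by -1.43 and -0.85. KIF11, the motor that pushes the spindle poles apart, fell by -2.02 in U266/s, and KIF23, the motor subunit of centralspindlin, by -1.71. The microtubule depolymerase KIF2C and the chromokinesin KIF4A had the smallest falls, -0.96 and -1.06. With CENPE counted as a kinesin, 9 of 9 fell in U266/s and the median was -2.02.

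Condensin, the ring complex that compacts chromosomes, fell in all 4 measured members in U266/s with a median of -0.91, and in 0 of 4 in U266/LR7 with a median of -0.13. NCAPG, a subunit specific to condensin I, gave 10.16 and 9.94, then 8.58 and 8.29 in U266/s, and 9.99 and 10.58, then 10.24 and 10.19 in U266/LR7. The U266/LR7 melphalan values lay between those without the drug, and the folds were -1.61 ± 0.20 (adjusted p = 6.66e-05, limma) and -0.07 ± 0.20 (adjusted p = 0.912). NCAPH, the subunit that closes the condensin I ring, had values of 10.34 and 10.15, then 9.21 and 9.25 in U266/s, against 10.42 and 10.38, then 10.14 and 10.19 in U266/LR7. NCAPH fell by -1.01 ± 0.13 in U266/s (adjusted p = 0.000122, limma), while the small separation in U266/LR7 did not pass (-0.24, adjusted p = 0.377).

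SMC2 is an ATPase arm of both condensins, and it gave 10.16 and 9.81, then 9.21 and 9.15 in U266/s. Its U266/LR7 values of 10.35 and 10.60, then 10.37 and 10.51 were within 0.26 of each other. The U266/s fold was -0.81 ± 0.16 (adjusted p = 0.00189, limma), a call lost without the U266/s control array. Its partner arm SMC4 fell there by -0.79.

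Among the cyclins, CDK1 and CDC25 phosphatases, 5 of 6 fell and 1 rose in U266/s, with a median of -0.90, and 1 of 6 fell in U266/LR7, with a median of -0.35. CCNB1, the cyclin B1 that activates CDK1, was the member that fell in both. CCNB1 gave 10.01 and 10.04, then 8.69 and 8.79 in U266/s, and 9.70 and 9.87, then 9.18 and 9.14 in U266/LR7. The melphalan arrays lay below the others of their line without overlap. Its folds were -1.29 ± 0.14 (adjusted p = 2.91e-05, limma) and -0.62 ± 0.14 (adjusted p = 0.0215). CCNB2, the second mitotic B cyclin, gave 11.19 and 10.85, then 10.04 and 10.03 in U266/s, and 10.69 and 11.00, then 10.37 and 10.46 in U266/LR7. CCNB2 fell in U266/s by -0.99 ± 0.16 (adjusted p = 0.000434, limma), and its U266/LR7 fold of -0.43 did not pass (adjusted p = 0.146).

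CDK1 itself gave 9.52 and 9.37, then 8.43 and 8.84 in U266/s, and 10.08 and 10.34, then 9.68 and 9.93 in U266/LR7. All 4 U266/LR7 values, melphalan included, lay above all 4 of U266/s, and the folds were -0.81 ± 0.16 (adjusted p = 0.00177, limma) and -0.40 ± 0.16 (adjusted p = 0.178). The U266/s call of CDK1 was lost without the U266/s control array. CDC25C, a phosphatase that activates cyclin B with CDK1 at mitotic entry, gave 7.68 and 7.52, then 6.42 and 6.72 in U266/s. In U266/LR7 it gave 7.77 and 8.06, then 7.67 and 7.56. CDC25C fell in U266/s by -1.03 ± 0.16 (adjusted p = 0.000388, limma) and its U266/LR7 fold was -0.30.

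CDC25B, the phosphatase that triggers CDK1 at the centrosome, went the other way. It is shown on all arrays because it rose, a choice made after its values were seen. CDC25B went in U266/s from 9.99 and 9.79 to 10.86 and 10.47, a fold of 0.77 ± 0.16 (adjusted p = 0.00205, limma). Its U266/LR7 values were 8.90 and 8.58, then 8.93 and 9.05, with a fold of 0.25 ± 0.16 (adjusted p = 0.438). CCNA2, the S and G2 phase cyclin, fell in U266/s by -0.81.

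**Figure D2:**
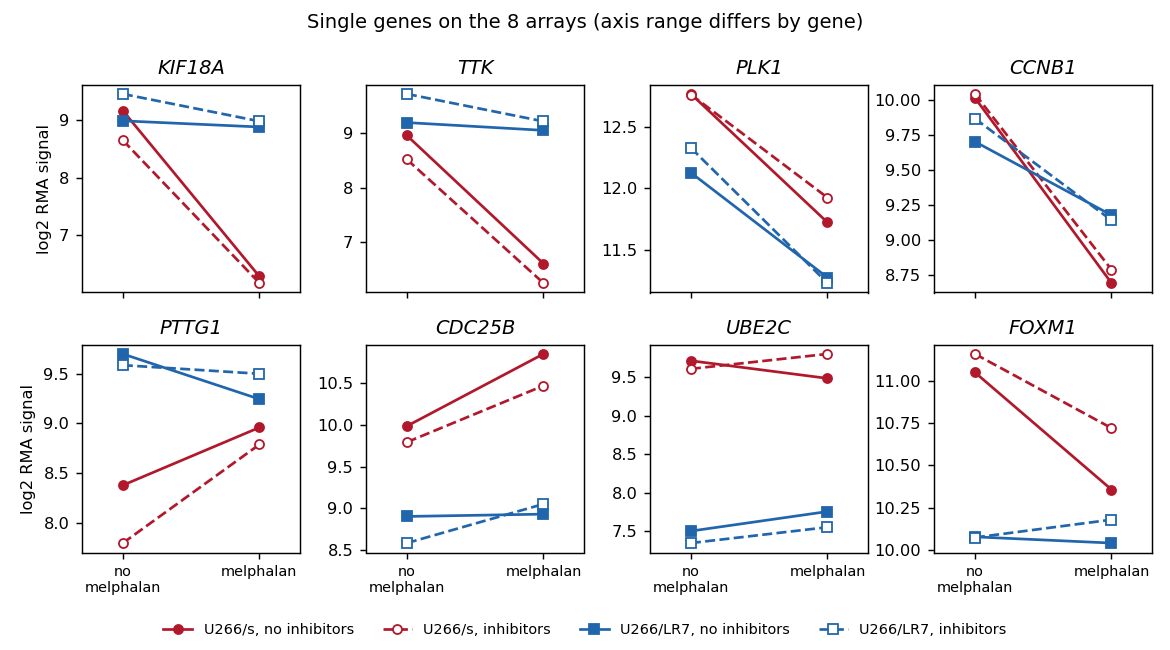
Signal of 8 genes without and with melphalan on the 8 arrays, on a log2 axis whose range differs between genes. Each line joins a pair of arrays, red for U266/s and blue for U266/LR7, with filled symbols and solid lines for arrays without inhibitors and open symbols and dashed lines for arrays with them. KIF18A and TTK drop by more than 2 log2 units in U266/s, PLK1 drops by about as much in each line (-0.94 and -0.97), PTTG1 and CDC25B rise in U266/s, and UBE2C and FOXM1 are lower in U266/LR7 on every array.

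The partners of the anaphase-promoting complex did not move together. CDC20, its mitotic activator and the target of the checkpoint, gave 11.58 and 11.58, then 10.39 and 10.80 in U266/s, and 10.83 and 11.11, then 10.43 and 10.57 in U266/LR7. CDC20 was lower with melphalan on all matched arrays, with a fall of -0.99 ± 0.13 in U266/s (adjusted p = 0.000142, limma) and a fold of -0.46 ± 0.13 in U266/LR7 that did not pass (adjusted p = 0.0629). PTTG1, the securin that holds separase inactive, rose in U266/s from 8.38 and 7.80 to 8.96 and 8.79. In U266/LR7 it stood at 9.70 and 9.59, then 9.24 and 9.50. Every U266/LR7 value of PTTG1 lay above every U266/s value, the fold in U266/s was 0.79 ± 0.18 (adjusted p = 0.00535, limma), and this call was lost without the U266/s array with inhibitors alone.

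UBE2C, the ubiquitin-conjugating enzyme of the complex, gave 9.72 and 9.61, then 9.49 and 9.80 in U266/s, and 7.50 and 7.35, then 7.76 and 7.55 in U266/LR7. Every U266/LR7 value lay below every U266/s value, while melphalan moved UBE2C by -0.02 ± 0.16 in U266/s and 0.23 ± 0.16 in U266/LR7 (adjusted p = 0.938 and 0.508, limma).

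Of 8 mitotic kinases and passenger complex genes, 5 fell in U266/s, with a median of -0.95, and 2 fell in U266/LR7, with a median of -0.13. PLK1, the polo-like kinase of mitotic entry, centrosome maturation and exit, gave 12.76 and 12.76, then 11.72 and 11.92 in U266/s. In U266/LR7 it gave 12.13 and 12.33, then 11.28 and 11.23. The lines lost nearly the same amount, -0.94 ± 0.11 (adjusted p = 5.27e-05, limma) and -0.97 ± 0.11 (adjusted p = 0.000651). AURKA, the kinase of spindle poles that activates PLK1, gave 10.87 and 10.90, then 8.62 and 9.26 in U266/s, and 11.00 and 11.19, then 10.24 and 10.25 in U266/LR7. AURKA fell by -1.95 ± 0.16 (adjusted p = 7.53e-06, limma) and by -0.85 ± 0.16 (adjusted p = 0.0114).

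PBK is a mitotic MAPKK-like kinase that gave 9.83 and 9.42, then 7.37 and 7.58 in U266/s, and 8.50 and 8.64, then 7.89 and 8.01 in U266/LR7. Its fall in U266/s was -2.15 ± 0.17 (adjusted p = 6.07e-06, limma), and in U266/LR7 the groups did not overlap but the fold of -0.62 did not pass (adjusted p = 0.0561). MELK, a kinase of proliferating cells, gave 9.45 and 9.06, then 7.15 and 7.11 in U266/s, and 9.27 and 9.63, then 9.28 and 9.29 in U266/LR7. MELK fell by -2.13 ± 0.18 in U266/s (adjusted p = 7.27e-06, limma), and its U266/LR7 melphalan arrays lay within the range of those without the drug. NEK2, a kinase that separates centrosomes, fell in U266/s by -0.96.

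The chromosomal passenger complex, which corrects wrong attachments, holds 3 of the 8, and none of them passed in U266/s. Its kinase AURKB gave 9.34 and 9.21, then 9.02 and 8.87 in U266/s, and 10.22 and 9.62, then 9.78 and 9.85 in U266/LR7. The U266/s arrays were ordered with melphalan below, but the fold of -0.33 ± 0.17 did not pass (adjusted p = 0.135, limma). BIRC5 (survivin) and INCENP, its other parts among the members, had U266/s folds of 0.14 ± 0.14 and 0.05 ± 0.14 (adjusted p = 0.42 and 0.801, limma). BIRC5 lay between 9.40 and 9.60 on all 4 U266/s arrays and INCENP between 8.83 and 8.99.

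Spindle assembly genes fell in 5 of 7 cases in U266/s, with a median of -1.33, and in 1 of 7 in U266/LR7, with a median of -0.39. ASPM, which focuses microtubules at the spindle poles, gave 10.01 and 9.66, then 7.80 and 7.16 in U266/s, and 8.89 and 9.73, then 8.94 and 8.62 in U266/LR7. The U266/LR7 groups overlapped, with folds of -2.36 ± 0.28 in U266/s (adjusted p = 5.31e-05, limma) and -0.53 ± 0.28 in U266/LR7 (adjusted p = 0.325). DLGAP5 (HURP), which stabilises microtubules near chromosomes, gave 9.22 and 8.91, then 7.44 and 7.35 in U266/s, and 9.08 and 9.25, then 8.27 and 8.26 in U266/LR7. DLGAP5 fell in both lines, by -1.67 ± 0.15 (adjusted p = 1.3e-05, limma) and -0.90 ± 0.15 (adjusted p = 0.00654).

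TPX2, the spindle factor that activates AURKA, gave 11.50 and 11.33, then 9.82 and 10.17 in U266/s, and 11.31 and 11.65, then 11.07 and 11.10 in U266/LR7. TPX2 fell by -1.42 ± 0.15 in U266/s (adjusted p = 2.43e-05, limma), while its U266/LR7 fold of -0.39 did not pass (adjusted p = 0.154). HMMR, a pole-bound protein, and CKAP2L, a spindle protein, fell in U266/s by -1.33 and -0.90. TACC3, which bundles microtubules with clathrin, and NUSAP1, a microtubule-bundling protein, were the exceptions, at 0.05 ± 0.15 and -0.42 ± 0.16 (adjusted p = 0.818 and 0.0518, limma).

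The 4 cytokinesis genes all fell in U266/s, with a median of -1.40, and 1 of them fell in U266/LR7. ECT2, the exchange factor that activates RhoA at the cleavage site, gave 9.53 and 9.10, then 7.01 and 7.09 in U266/s, and 9.36 and 9.75, then 9.29 and 9.38 in U266/LR7. ECT2 fell by -2.26 ± 0.18 in U266/s (adjusted p = 6.74e-06, limma), and its U266/LR7 groups overlapped. ANLN (anillin), the scaffold of the contractile ring, gave 10.14 and 9.92, then 8.36 and 7.91 in U266/s. Its U266/LR7 values were 9.72 and 10.34, then 10.04 and 10.23, with folds of -1.90 ± 0.22 (adjusted p = 4.76e-05, limma) and 0.11 ± 0.22 (adjusted p = 0.863). ANLN in U266/LR7 was thus not lower with melphalan in the mean.

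PRC1, the crosslinker of the central spindle, gave 10.55 and 10.29, then 9.53 and 9.52 in U266/s, and 10.38 and 10.41, then 9.75 and 9.93 in U266/LR7. PRC1 fell by -0.90 ± 0.14 (adjusted p = 0.000451, limma) and by -0.56 ± 0.14 (adjusted p = 0.0435), the least firm of the U266/LR7 calls. RACGAP1, the other centralspindlin subunit, fell in U266/s by -0.75, a call lost without the U266/s control array.

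FOXM1, the forkhead factor that transcribes many G2 and mitosis genes, gave 11.05 and 11.16, then 10.36 and 10.72 in U266/s, and 10.08 and 10.07, then 10.04 and 10.18 in U266/LR7. The 4 U266/LR7 values lay within 0.14 of each other and below all U266/s values. FOXM1 fell by -0.56 ± 0.13 in U266/s (adjusted p = 0.00579, limma), a call lost without the U266/s control array, without the U266/s melphalan array, and with transfection coded as 3 levels. Its fold in U266/LR7 was 0.03 ± 0.13.

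TOP2A, the topoisomerase that untangles sister chromosomes, gave 11.61 and 11.31, then 10.00 and 9.91 in U266/s, and 11.35 and 11.85, then 10.72 and 10.72 in U266/LR7. TOP2A fell in both lines, by -1.50 ± 0.17 (adjusted p = 4.14e-05, limma) and -0.88 ± 0.17 (adjusted p = 0.0117). MKI67 (Ki-67), the common marker of cycling cells, gave 11.12 and 10.87, then 10.68 and 10.43 in U266/s, and 10.32 and 11.47, then 10.80 and 10.65 in U266/LR7. The widest gap of MKI67 was between the 2 U266/LR7 arrays without melphalan, and its melphalan folds of -0.44 ± 0.28 and -0.17 ± 0.28 did not pass (adjusted p = 0.217 and 0.825, limma).

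**Figure D3:**
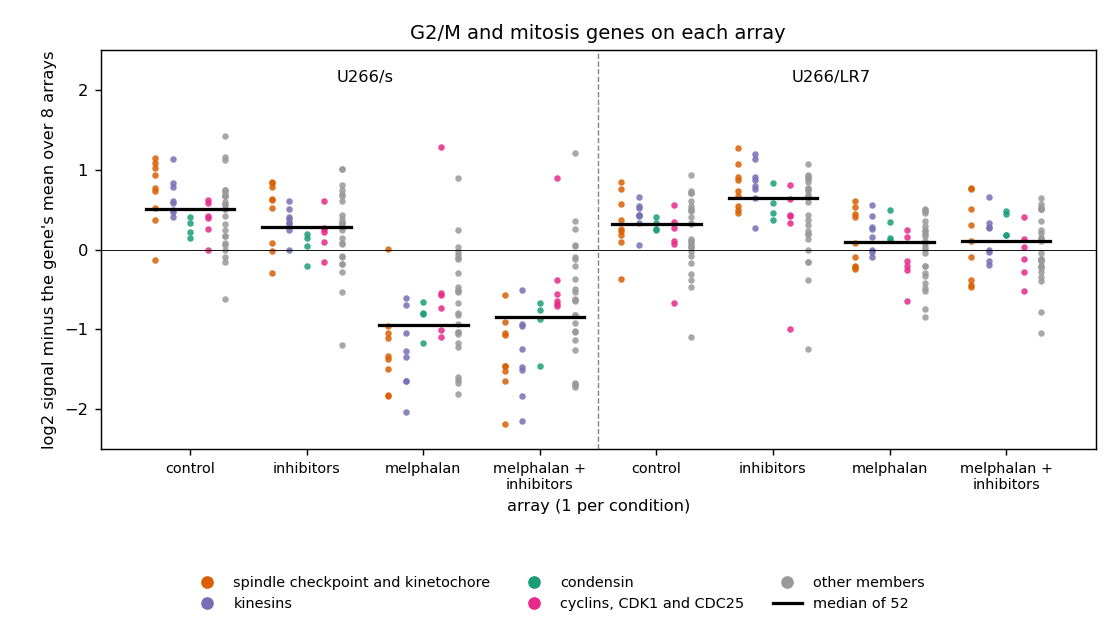
Signal of the 52 genes on each array, as log2 signal minus the mean of the same gene over the 8 arrays, with colours for the 4 role groups compared and grey for other members. Black bars give the median of the 52, which is -0.95 and -0.85 on the U266/s arrays with melphalan, 0.10 and 0.10 on the U266/LR7 arrays with melphalan, and between 0.28 and 0.65 on the 4 arrays without it.

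Set side by side, the kinesins (-1.87) and the spindle checkpoint and kinetochore genes (-1.76) had lower median folds in U266/s than condensin (-0.91) and the cyclin and CDK1 group (-0.90). Their ranges overlapped, since SGO1 (-0.87) and KIF2C (-0.96) lay near the condensin median and NCAPG (-1.61) and CCNB1 (-1.29) below it. These groups have 8, 9, 4 and 6 members, and the difference between groups was not tested. In U266/LR7 the same medians were -0.38, -0.38, -0.13 and -0.35. Array by array, 46 of the 52 genes had both U266/s melphalan arrays below both without it, where 33.4% of all genes did, and 31 of 52 did so in U266/LR7, where 18% of all genes did.

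The 9 genes that fell in U266/LR7 were PLK1, DLGAP5, TOP2A, KIF20A, AURKA, BUB1B, BUB1, CCNB1 and PRC1, and all 9 also fell in U266/s. The other 34 that fell in U266/s did not pass in U266/LR7, and 0 fell in U266/LR7 alone. Over the 52 genes the folds of the lines had a Pearson r of 0.48 and a Spearman rho of 0.50, given as a description, since the genes of a line share its 4 arrays. The number of U266/LR7 falls depended on single arrays and on the coding of transfection. With transfection coded as 3 levels, which follows the tags, 6 genes fell and BUB1, CCNB1, AURKA and PRC1 no longer passed (adjusted p = 0.0699, 0.0808, 0.0506 and 0.24, limma). Leaving out arrays, the number was 16 without the U266/LR7 control array, 3 without the melphalan array, 5 without the array with inhibitors alone and 1 without the array with both agents. PLK1 was the member that fell in U266/LR7 under all 16 alternatives that could be fitted, whereas PRC1 was lost in 11. At an unadjusted p under 0.05, 21 of 52 genes differed in U266/LR7, and 20.1% of all genes.

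The difference in response between the lines was tested as the melphalan by line term, which is the U266/LR7 fold minus the U266/s fold. A positive value stands for a smaller fall in U266/LR7. The term averages the arrays without and with inhibitors, which differed, as given below. It was positive and passed in 32 of 52 genes and negative in 1, where over all genes 17.9% were positive and 5.99% negative, and its median was 0.77, beside -0.011 over all genes. The number of genes that passed was 18 without the U266/s control array and 20 without the U266/LR7 melphalan array. Spindle checkpoint and kinetochore genes passed in 8 of 9 cases, with a median of 1.31, kinesins in 6 of 8 with 1.47, and condensin in 4 of 4 with 0.77. Cyclins, CDK1 and CDC25 passed in 2 of 6 with a median of 0.56, and cytokinesis genes in 3 of 4 with 1.34. The condensin arms SMC2 and SMC4 lost their calls under quantile and cyclic loess normalization, which left 2 of 4, and in 8 of 16 alternatives each. CCNB1 and CDC25C, the cyclin group's calls, were both lost when all 2-way interactions were fitted, and in 10 and 6 of 16 alternatives.

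The widest differences were SGO2 at 2.64 ± 0.28 (adjusted p = 0.000163, limma), KIF18A at 2.38 ± 0.29 (adjusted p = 0.000285), ECT2 at 2.04 ± 0.26 (adjusted p = 0.000386) and ANLN at 2.01 ± 0.31 (adjusted p = 0.000968). PTTG1 was the negative case, at -1.06 ± 0.26 (adjusted p = 0.0125, limma), having risen in U266/s and not in U266/LR7. PLK1 had a difference of -0.03 ± 0.16 (adjusted p = 0.897, limma), which does not show equal responses. Of the 9 genes that fell in both lines, BUB1B, AURKA, DLGAP5, BUB1 and CCNB1 still passed for a smaller fall in U266/LR7, while KIF20A (0.58), TOP2A (0.63), PRC1 (0.34) and PLK1 did not. Of these 5 calls, BUB1B's was kept in all 16 alternatives, AURKA's was lost without the U266/s control array, DLGAP5's in 6 alternatives that each left out an array, and those of BUB1 and CCNB1 in 7 and 10, quantile and cyclic loess normalization among them. CDK1 (0.41), CDC20 (0.53) and CCNB2 (0.56) did not pass either (adjusted p = 0.221, 0.0658 and 0.0916, limma).

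Without melphalan the lines differed in a mixed way. Of the 52 genes, 10 were higher and 6 lower in U266/LR7 than in U266/s, where over all genes 16.9% were higher and 17.8% lower, and the median difference was 0.07. The pairs of arrays behind this mean ran opposite ways. Between the control arrays 37 of the 52 genes were lower in U266/LR7, with a median difference of -0.18, and between the arrays with inhibitors 37 of 52 were higher, with a median of 0.33. These comparisons use the arrays without melphalan that also enter the folds above. The higher genes were PTTG1 (1.56), HMMR (1.09), NUSAP1 (0.92), SGO1 (0.85), CDK1 (0.77), TTK (0.72), NDC80 (0.68), AURKB (0.64), CKAP2L (0.54) and SMC2 (0.49). The lower genes were UBE2C (-2.24), CDC25B (-1.15), PBK (-1.06), FOXM1 (-1.03), CDC20 (-0.61) and PLK1 (-0.53). UBE2C differed with an SE of 0.16 (adjusted p = 1e-06, limma) and PTTG1 with an SE of 0.18 (adjusted p = 4.79e-05), so the ligase's partner enzyme and its substrate securin differed in opposite directions between the lines. None of the 8 kinesins or 4 cytokinesis genes passed. Without the U266/s array with inhibitors alone, 3 were higher and 7 lower, a total of 10.

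With melphalan, 40 of the 52 genes were higher and 5 lower in U266/LR7 than in U266/s, where over all genes 27.7% were higher and 24% lower, and the median difference was 0.90. All 8 kinesins, 4 of 4 condensin genes and 8 of 9 spindle checkpoint and kinetochore genes were higher. TTK had the widest gap, 2.70 (adjusted p = 2.53e-06, limma), followed by KIF18A at 2.69 and ECT2 at 2.28. The 5 lower genes were UBE2C (-1.99), CDC25B (-1.67), PLK1 (-0.57), BIRC5 (-0.53) and FOXM1 (-0.43). The BIRC5 call was lost with the mean of its clusters, and that of FOXM1 in 4 of 16 alternatives, median centring among them. UBE2C, CDC25B, PLK1 and FOXM1 were thus lower in U266/LR7 both without and with melphalan.

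The inhibitors of miR-221 and miR-222, averaged over lines and melphalan, changed 0 of the 52 genes, where over all genes 0.0271% rose and 0.0163% fell (limma). At an unadjusted p under 0.05 the count was 0 of 52 members and 6.3% of all genes, and the smallest adjusted p of a member was 0.788. The single pairs of arrays differed between the lines. Without melphalan, the array with inhibitors was below its control in U266/s for 49 of 52 genes, with a median difference of -0.23, whereas in U266/LR7 it was above its control for 45 of 52, with a median of 0.27. Over all genes 46.8% were lower in that U266/s pair and 50.8% in that U266/LR7 pair. MKI67 gave the largest U266/LR7 difference, 1.15, followed by CENPE (0.90) and ASPM (0.85), and in U266/s these genes differed by -0.25, -0.37 and -0.35. With melphalan the medians were 0.03 and 0.02, and 25 and 22 of the 52 genes were lower with inhibitors. Each of these differences is between 2 single arrays, so the difference between the lines was not tested. These differences also enter the melphalan differences. In U266/LR7 their median was -0.15 between the arrays without inhibitors and -0.45 between those with them. In U266/s it was -1.23 and -1.02. The medians of the lines thus lay closer together on the arrays with inhibitors, and the melphalan by line term averages over this.

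**Figure D4:**
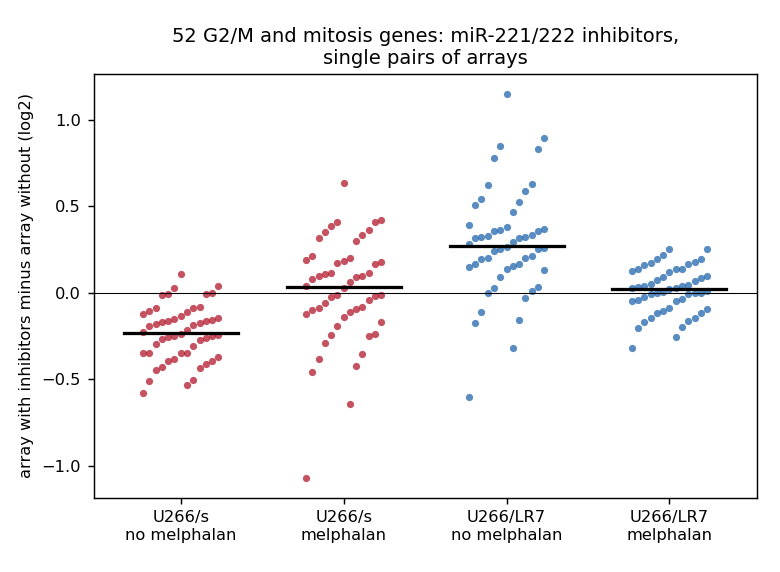
Difference between the array with inhibitors of miR-221 and miR-222 and the array without them, in log2 signal, for the 52 genes in each line without and with melphalan; points are genes and black bars medians. Without melphalan the medians are -0.23 in U266/s (red) and 0.27 in U266/LR7 (blue), and with melphalan they are 0.03 and 0.02.

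The promoters were examined because these genes moved together in U266/s and are known to share promoter elements. RefSeq promoter windows on GRCh38.p14, from 250 bases before to 50 after a start, matched 44 of the 52 genes by symbol with 57 windows. TTK, UBE2C, AURKA, BIRC5, PBK, TPX2, RACGAP1 and FOXM1 were not matched. The motifs searched on both strands were the CHR, as TTTGAA or TTTAAA, and the CCAAT box, as CCAAT, which NF-Y binds. The 150 bases before the start are shown, in the direction of the gene, for genes that fell in both lines (CCNB1, PLK1 and BUB1B), for genes that fell in U266/s (CCNB2 and KIF18A), for PTTG1, which rose there, and for TACC3, which did not pass in any melphalan test. Capitals mark the CHR and CCAAT letters on either strand, and in PTTG1 a run of CCAAT and its reverse complement overlap.
CCNB1: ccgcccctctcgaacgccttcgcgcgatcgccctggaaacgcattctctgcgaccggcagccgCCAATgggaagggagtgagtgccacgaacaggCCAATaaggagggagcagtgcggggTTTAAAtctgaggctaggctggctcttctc
PLK1: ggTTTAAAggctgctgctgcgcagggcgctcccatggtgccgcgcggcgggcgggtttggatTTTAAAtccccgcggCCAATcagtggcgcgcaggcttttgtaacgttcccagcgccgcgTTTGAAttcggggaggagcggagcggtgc
BUB1B: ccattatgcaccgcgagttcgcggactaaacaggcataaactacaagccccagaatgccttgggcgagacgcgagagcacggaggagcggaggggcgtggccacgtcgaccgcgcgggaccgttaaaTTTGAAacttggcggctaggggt
CCNB2: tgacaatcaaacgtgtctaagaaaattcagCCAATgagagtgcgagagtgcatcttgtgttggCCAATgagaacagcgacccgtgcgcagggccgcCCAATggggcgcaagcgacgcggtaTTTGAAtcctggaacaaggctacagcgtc
KIF18A: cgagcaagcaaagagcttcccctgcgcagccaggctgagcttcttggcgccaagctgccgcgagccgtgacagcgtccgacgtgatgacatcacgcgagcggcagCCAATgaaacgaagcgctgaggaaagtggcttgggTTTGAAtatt
PTTG1: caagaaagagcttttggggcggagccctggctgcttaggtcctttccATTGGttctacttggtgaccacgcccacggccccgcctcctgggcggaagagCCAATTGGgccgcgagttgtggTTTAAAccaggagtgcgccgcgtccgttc
TACC3: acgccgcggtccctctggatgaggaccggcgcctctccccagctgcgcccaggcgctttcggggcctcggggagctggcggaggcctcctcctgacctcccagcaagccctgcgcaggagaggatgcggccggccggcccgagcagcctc
The windows lie at chr5:69167000-69167149 (plus strand) for CCNB1, chr16:23678739-23678888 (plus) for PLK1, chr15:40160919-40161068 (plus) for BUB1B, chr15:59104996-59105145 (plus) for CCNB2, chr11:28108157-28108306 (minus) for KIF18A, chr5:160421705-160421854 (plus) for PTTG1 and chr4:1720481-1720630 (plus) for TACC3. In CCNB1, CCNB2, PLK1 and PTTG1 a CHR starts 29 or 30 bases before the gene's start, in BUB1B 23 and in KIF18A 10 bases before. The CCNB1, CCNB2, PLK1, KIF18A and PTTG1 windows also hold at least 1 CCAAT box upstream of that CHR. PTTG1 has another annotated start, not shown, and the same CHR begins 84 bases before it. BUB1B has a CHR and no CCAAT here, and the TACC3 window holds neither motif. The MELK window, not shown, also holds neither, and MELK fell by -2.13 in U266/s. BUB1, whose window is not shown and has CCAAT but no CHR, fell there by -1.44.

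Over the whole windows, a CHR was found in 42 of 57, or 73.7%, against 24.0% of all 35116 windows of the same length. By gene, 37 of 44 (84.1%) had 1 or more, against 27.9% of all 27305 genes with a window. CCAAT was found in 68.4% of the windows against 34.6% of all, and both motifs together in 54.4% against 9.27%. Within 50 bases of the start on either side, 59.6% of the windows held a CHR, against 7.62% of all. Of the 37 genes with a CHR, 32 fell in U266/s with a median fold of -1.33. The 7 with neither TTTGAA nor TTTAAA were AURKB, BUB1, CCNA2, MELK, NEK2, SGO1 and TACC3, of which 5 fell with a median of -0.87. Other spellings of the CHR were not searched. With TTTGAA alone in the 250 bases before the start, the median was -1.20 for 22 genes with it and -1.15 for 22 without. Genes with a CCAAT box had a median of -1.03 and those without -1.69. None of these differences in fold was tested. PTTG1, which rose, and INCENP, MKI67 and NUSAP1, which did not pass, have both motifs in a window. CDC25B, which also rose, has them in separate windows.

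Other genes of the same pathways were taken from lists beside the members. The counts of all the lists that follow stand beside 24.9% of all genes that fell and 18.4% that rose in U266/s. In U266/LR7 these shares were 3.61% and 3.02%. Of 16 subunits and enzymes of the anaphase-promoting complex, 9 fell and 1 rose in U266/s (median -0.51), led by ANAPC10 (-1.60), ANAPC4 (-1.46) and ANAPC7 (-1.39), while UBE2S, the enzyme that extends its ubiquitin chains, rose by 0.60. None of the 16 passed in U266/LR7. Of 14 cohesin and separase genes, which hold and release sister chromatids, 11 fell and 1 rose (median -1.24). The acetyltransferase ESCO2 (-2.05), the ring subunit SMC3 (-2.04) and the loop regulator PDS5B (-2.04) led them, and sororin, CDCA5, rose by 0.55. In U266/LR7, STAG1 (-1.72) and PDS5B (-0.81) fell.

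The other 4 condensin subunits fell in 3 cases and rose in 1, with NCAPD3 at -1.37, NCAPG2 at -1.07, NCAPD2 at -0.98 and NCAPH2 at 0.41. Of 20 further centromere and kinetochore genes 12 fell and 0 rose in U266/s (median -0.53), among them KNL1 (-1.66), CENPI (-1.57) and CENPL (-1.17). Of 9 further checkpoint genes 7 fell (median -0.77), among them ZW10 (-1.60), KNTC1 (-1.0) and MAD2L1 (-0.93). Of 19 other genes of kinesins and their subunits, mostly of cargo transport, 8 fell (42.1%) and 4 rose (21.1%). Their median was -0.13, and the shares stand beside 24.9% and 18.4% of all genes. KIF21A at -2.43, KIFAP3 at -1.37 and KIF2A at -1.37 fell most, and KIF21B at 1.04 and KIF1C at 0.86 rose most. All 8 mitotic kinesins of the list fell, as given above, but the difference between the kinesin lists was not tested.

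Among 15 genes that control G2 entry, 11 fell and 0 rose in U266/s (median -0.80). The phosphatase subunits PPP2R2A (-2.40) and PPP2R2D (-1.35) and the AURKA activator BORA (-1.91) fell, as did WEE1 (-1.09), the kinase that restrains CDK1. In U266/LR7, CDC25A rose by 0.56 and no other gene of this list passed. Of 15 genes of the MuvB, DREAM and NF-Y complexes and B-MYB, 11 fell and 0 rose in U266/s (median -0.99), led by E2F5 (-2.0), LIN9 (-1.57) and LIN54 (-1.48), the last of which binds the CHR. TFDP2 was the gene of this list that fell in U266/LR7, by -0.71.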

How the data were processed

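The deposited log2 values, 1 column for each of 8 arrays, are the authors' own: the submitters' processing notes name RMA and Affymetrix Expression Console, with versions, settings and build not given in the sources used here. It holds 33297 transcript clusters, of which 19460 carry 1 gene symbol in the platform annotation, 1754 several and 12083 none there; 19429 matched a RefSeq gene ID (GRCh38.p14, used for names). For the 769 genes with several clusters the brightest mean was kept, which left 18417 genes; among members this concerned BIRC5. KIF4A also lies on a cluster with several symbols, which was left out. No filter on low values was used, and the number of arrays limits the precision.

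Genes were tested with limma 3.58.1 (R 4.3.3; lmFit, eBayes with an intensity trend) with terms for line, melphalan, inhibitors and melphalan by line, leaving 3 residual degrees of freedom, with Benjamini-Hochberg adjustment at 0.05. The fit was tested on simulated data. Differences between single arrays carry no test. Alternatives were median centring, quantile and cyclic loess normalization, genes above the median signal, no trend, the mean of clusters, an additive fit, all 2-way interactions, transfection as 3 levels, and leaving out each array. The members, role groups, other lists and motifs were chosen with earlier results of these data known. Values on all arrays are given for the 3 members of each role group with the largest absolute fold in either line, and for CCNB1, CDK1, PLK1, CDC20, AURKB, FOXM1, MKI67 and TOP2A; CDC25B was added after its values were seen; from other lists the 3 largest called folds in U266/s and the largest rises are named, and TFDP2, STAG1, WEE1 and CDC25A were named after their values were seen.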

Additional observations from a re-analysis of the deposited data

Results flagged for a closer look

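The melphalan by line term (limma, U266/LR7 fold minus U266/s fold in log2 units) passed in 33 of the 52 genes. It was positive in 32 and negative in 1, where over all genes 17.9% were positive and 5.99% negative. Among spindle checkpoint and kinetochore genes it was 2.64 for SGO2, 1.98 for TTK, 1.59 for BUB1B, 1.48 for NUF2, 1.31 for NDC80, 1.25 for CENPE, 0.88 for SGO1 and 0.75 for BUB1. Among kinesins it was 2.38 for KIF18A, 1.85 for KIF20B, 1.69 for KIF11, 1.58 for KIF14, 1.36 for KIF23 and 0.79 for KIF2C. For condensin it was 1.55 for NCAPG, 0.78 for NCAPH, 0.77 for SMC2 and 0.60 for SMC4. Of the cyclin and CDC25 group it was 0.73 for CDC25C and 0.66 for CCNB1. PTTG1, the securin gene, differed the other way, at -1.06. Among mitotic kinases it was 1.96 for MELK, 1.53 for PBK, 1.13 for NEK2 and 1.10 for AURKA. Among spindle assembly genes it was 1.83 for ASPM, 1.03 for TPX2, 0.84 for HMMR and 0.77 for DLGAP5. In the cytokinesis group it was 2.04 for ECT2, 2.01 for ANLN and 0.67 for RACGAP1. FOXM1 stood at 0.60. Of the 33 calls, 17 were kept in all 16 alternatives other than the additive fit.

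Without melphalan, the array with inhibitors of miR-221 and miR-222 differed from the control array in opposite directions in the lines. The median difference of the 52 genes was -0.23 in U266/s and 0.27 in U266/LR7. With 1 array a condition the difference between the lines was not tested. No condition has enough arrays for a search for outlying samples.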

How the results depend on the processing

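No result reversed under any alternative run. Of the 52 genes, the number lower with melphalan in U266/s ranged from 38 to 46 when each array was left out, and the number lower in U266/LR7 from 1 to 16. The melphalan by line term passed in 18 to 40 genes, the difference between lines without melphalan in 10 to 22, and with melphalan in 37 to 46. The inhibitors changed 0 throughout. The additive fit, which averages the line difference over melphalan states by its construction, gave 25 genes, 20 higher and 5 lower, in place of 16 without and 45 with melphalan. It could not be run for melphalan within a line. With the other data settings each of these counts stayed within 1.5 times. Calls kept in all 16 alternatives other than the additive fit were 39 of 45 for U266/s, 1 of 9 for U266/LR7, 17 of 33 for the term between lines, 7 of 16 without and 36 of 45 with melphalan. Scaling moved the background: median centring shifted the all-gene median of the line term from -0.011 to 0.125 and the higher share of all calls from 42.5% to 23.6% for U266/s, from 74.9% to 85.4% for the line term and from 53.6% to 67.4% between lines with melphalan; cyclic loess moved it from 45.6% to 34.4% for U266/LR7. A CHR was found in 30 genes with the bases before the start alone and in 29 with TTTGAA alone, against 37. Over all genes with a window the shares were 25.5%, 18.2% and 27.9%. No fit with a replicate block was possible because the labels carry no replicate numbers; arrays were matched by line and inhibitors, as the inhibitors term of the fit does.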
